A study of Homo sapiens with 19 samples.

Results

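RNA-seq of H1-EED-/-/EED-OE cells on days 12 and 16 after the withdrawal of doxycycline (DOX) was compared with RNA-seq of the same line kept with DOX. These are 3 of the 19 samples of the series, 1 library each. The line was made from H1, an established human embryonic stem cell (hESC) line. An EED transgene that DOX switches on was added first, and the endogenous EED was then deleted with CRISPR/Cas9. The DOX sample thus carries the same deletion and is not wild type. All 3 samples come from a single engineered line. Wild-type H1 (WT H1) and constitutive EED-/- H1 cells, 2 samples each and without the transgene, are used as references, and the other days of the time course (8, 20, 24 and 28, 1 sample each) only to follow genes found on days 12 and 16. The label of the DOX sample carries day 28 in its title, so DOX and time in culture cannot be told apart in this comparison. The deposited values were TPM, a share of all transcripts corrected for transcript length, and genes were called higher or lower where log2((TPM + 1)/(TPM with DOX + 1)) was past a fold of 3 (1.585 on the log2 scale) in the same direction on both days. Of 33382 genes, 16558 reached a TPM of 1 in any of the 3 samples, and 337 of these were higher and 42 lower on both days. No gene was past the fold in opposite directions. Both days were set against 1 DOX library, and only 1.71% of genes were past the fold between day 12 and day 16. That absence was thus largely set by the design.

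Polycomb repressive complex 2 (PRC2) methylates lysine 27 of histone H3 and keeps developmental genes silent. EED is the core subunit that reads the methylated histone and stimulates the enzymes EZH1 and EZH2, and SUZ12 holds the complex together. In hESCs many genes of the germ layers, the HOX clusters among them, are covered by this mark, while POU5F1, SOX2 and NANOG maintain pluripotency. The primitive streak is the structure of the gastrulating embryo in which WNT and NODAL signals switch on TBXT, EOMES and MIXL1 in cells that become mesoderm and endoderm.

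EED, the targeted gene, was lower after the withdrawal of DOX. It had a TPM of 108.5 with DOX, 17.5 on day 12 and 13.7 on day 16, a log2 ratio to DOX of -2.57 and -2.90. WT H1 had 17.3 and 22.0 and EED-/- H1 had 14.3 and 22.4, so the DOX sample stood above all of them, and days 12 and 16 lay at the level of lines with and without EED. TPM per gene cannot separate the transgene from transcripts of the deleted locus, so these values check neither the deletion nor the functional EED. The other 11 measured PRC2 subunits were not past the fold on both days, and EZH2 was at 36.3, 42.7 and 60.9 with DOX, on day 12 and on day 16.

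On day 12 alone, 540 genes were higher than with DOX (3.26% of those tested) and 76 were lower (0.459%). On day 16, 725 were higher (4.38%) and 170 lower (1.03%). The 337 genes higher on both days make 2.04% and the 42 lower genes 0.254% of the genes tested, and the counts of genes on both days are those that the rule fixed. Both days were compared with the same DOX library. Day 16 was farther from DOX than day 12 for 224 of the 337 higher genes and 20 of the 42 lower ones. These counts describe the called genes, and the share over all genes was not computed. The median log2 ratio over all genes tested was 0.27 on day 12 and 0.16 on day 16, so the ratios below include a shift of this size. With TPM scaled by median ratios, which takes that shift out, 219 genes were higher and 61 lower, and the share of higher genes went from 88.9% to 78.2%. Just inside the fold lay PTPRG at 1.586 and TNNT2 at -1.631, and just outside SYT6 at 1.584 and C22orf15 at -1.555, each the smaller log2 ratio of the 2 days.

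**Figure D1:**
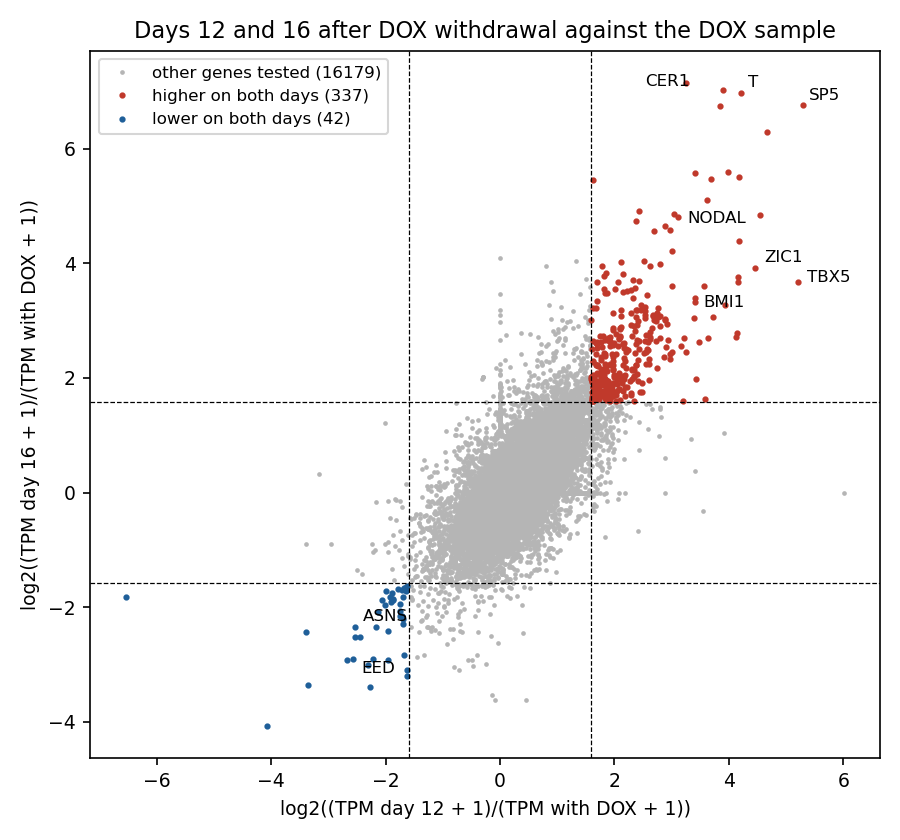
Log2 ratios of TPM + 1 to the DOX sample on day 12 (horizontal) and day 16 (vertical), 1 point for each of 16558 genes, with the fold of 3 as dashed lines. The 337 higher genes (red) reach log2 ratios near 7 on day 16, where CER1 and T lie, and the 42 lower genes (blue) include EED and ASNS.

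No day has a second library, so no p-value was computed for single genes on these days, and the replicate error comes from the other lines. Between the 2 libraries of a line, 47 genes were past the fold in WT H1 (0.306%), 50 in EZH1-/- H1, 65 in SUZ12-/- H1, 317 in EZH2-/- H1 (2.03%), 412 in EED-/- H1 (2.33%) and 1125 in EZH2-/-/EZH1-/- H1 (6.39%). In either direction, 616 genes were past it on day 12 (3.72%) and 895 on day 16 (5.41%). These shares lie above those of 5 of the 6 replicate pairs and below that of the last. The DOX library itself differed past the fold from the 2 WT H1 libraries in 462 (2.97%) and 694 (4.47%) genes, which is about as many as the days. Of the 337 higher genes, 65 were also higher in both WT H1 libraries than with DOX by the fold, and of the 42 lower genes 9 were also lower in both. QKI, which encodes an RNA-binding protein, is an example, with a TPM of 11.5 with DOX, 80.3 and 99.8 on days 12 and 16, and 107.2 and 101.1 in WT H1. On the other side, 129 of the higher and 14 of the lower genes were past the fold from DOX and from both WT H1 libraries on both days. The rule chose genes by their distance from the DOX library, so these counts describe them and are not independent of it. Such shares over all genes were not computed. The SD of log2(TPM + 1) between replicates was pooled over 6 lines (n = 2 each). The smaller log2 ratio was over 3 times this SD for 279 of the 337 and 28 of the 42 genes. The median SD was 0.45 in the higher and 0.51 in the lower genes, so most genes past the fold also pass this bound. These 2 counts were thus largely set by the rule, and the share over all genes was not computed. They cannot show that the changes exceed replicate error.

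Pluripotency genes were still expressed on both days. POU5F1, the master regulator of pluripotency, had a TPM of 2916 with DOX, 3468 on day 12 and 3356 on day 16, against 2531 and 2428 in WT H1. SOX2 had 131.4, 165.2 and 94.4, below both WT H1 values (164.6 and 218.7) on day 16. LIN28A, which blocks let-7 maturation, had 617.3, 630.5 and 580.3. None of these values was past the fold from DOX on either day. NANOG was, with 54.1, 166.9 and 184.3 (log2 ratios of 1.61 and 1.75). WT H1 stood at 140.4 and 97.5, so both days lay above both WT H1 samples and DOX lay below both. With TPM scaled by median ratios its smaller log2 ratio was 1.31 and it was no longer past the fold. Its near-identical copy NANOGP8 was also higher, at 24.5, 81.5 and 89.4, and reads of the pair may have been split between them. GDF3, a TGF-beta family ligand of pluripotent cells, was the only other higher gene of the list, with 15.1, 63.9 and 187.3 against 15.1 and 17.4 in WT H1.

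Over the 24 genes of the core and primed pluripotency list, 2 were higher (8.33%, beside 2.04% of all genes tested) and 0 lower on both days. The median log2 ratio to DOX was 0.46 on day 12 and 0.19 on day 16, beside 0.27 and 0.16 over all genes tested. Against the mean of WT H1, the medians were -0.137 and -0.728. The sign of the list thus depended on the reference, and day 16 was the lower of the 2 days with either one. On day 16 several members were well under WT H1. DNMT3B, the DNA methyltransferase of primed hESCs, had 316.4 against 845.7 and 840.4, and USP44 had 19 against 117.0 and 108.9. DNMT3B with DOX was at 433.7, so it was already below WT H1 there. Of the naive pluripotency list, 3 of 10 tested genes were higher, KLF5 (1.26, 8.75 and 18.1), TBX3 (0.14, 5.70 and 6.66) and NR5A2 (0.75, 6.42 and 5.14). KLF5 and TBX3 were higher still on day 28 (56.7 and 56.9), when POU5F1 was down to 33.6, and NR5A2 was at 2.6. Their rise is thus no measure of pluripotency. None of the 20 DNA replication and mitosis genes was past the fold on either day.

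**Figure D2:**
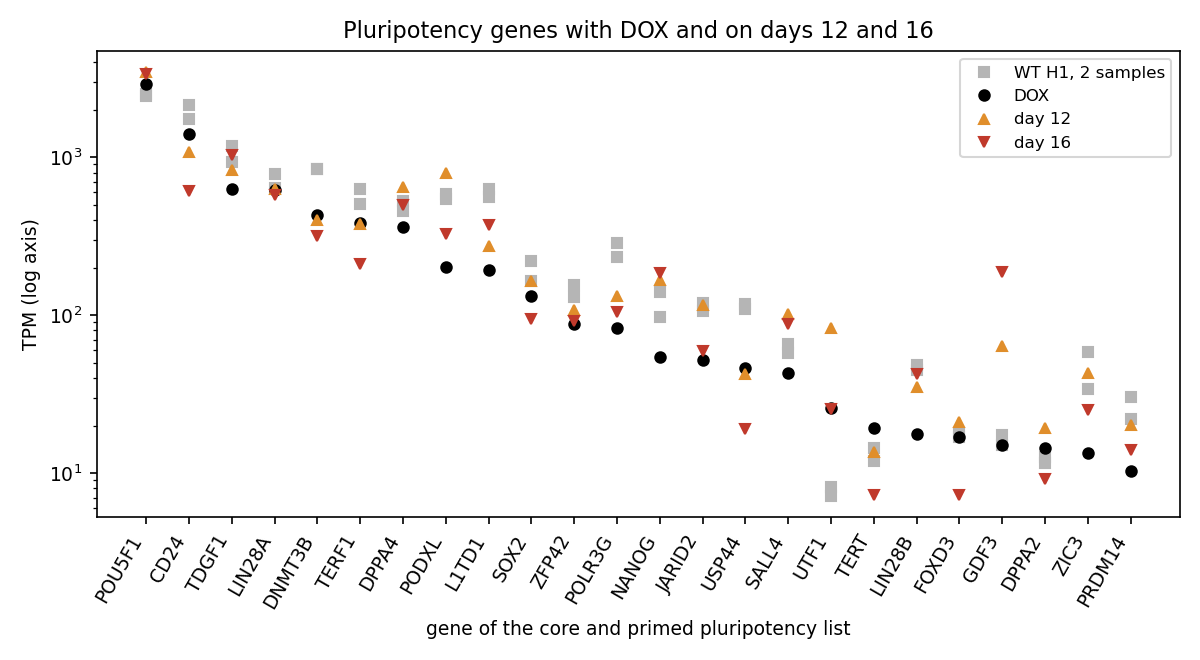
TPM on a log axis of the 24 pluripotency genes, ordered by their level with DOX, in the DOX sample (black), on day 12 (orange), on day 16 (red) and in 2 WT H1 samples (grey squares), 1 point per sample. POU5F1 lies between 2428 and 3468 in these 5 samples, GDF3 reaches 187.3 on day 16, and CD24, TERF1, USP44 and TERT lie lowest on day 16.

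Genes of the primitive streak were well represented among the leading higher genes, and 5 of the first 15 belong to that list. Of its 14 genes 8 were higher on both days (61.5% of the 13 tested, beside 2.04% of all genes tested). All 8 stayed past the fold with TPM scaled by median ratios. Of the 13 tested, 7 were under a TPM of 1 with DOX and entered the test only through the days, beside 2087 of all 16558. The shares of 61.5% and 2.04% are thus not like for like. Of the 13, 10 were under a TPM of 2 with DOX, too low to be called lower, so that none was lower is not a result. The same limit touches 7 of 10 tested genes of the naive pluripotency list, 10 of 13 of the endoderm list and 12 of 19 of the WNT list, beside 3704 of all 16558. The summed TPM of the 14 genes was 23.7 with DOX, 319.5 on day 12 and 1304.4 on day 16, and 22.4 and 16.3 in WT H1. In such bulk samples, more cells with these transcripts and more transcript per cell cannot be told apart. All 8 genes were farther from DOX on day 16 than on day 12.

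Among the transcription factors, TBXT (brachyury, listed as T in the files) was at 0 with DOX, 17.5 on day 12 and 124.6 on day 16, and at 0.37 and 0 in WT H1. MIXL1, a mesendoderm homeobox factor, had 1.34, 33.9 and 302.7. EOMES, the T-box factor that opens the definitive endoderm programme, had 0.08, 14.5 and 115.3, and the organizer gene GSC had 0.19, 7.81 and 28.8. Both WT H1 samples were at or below 1.27 for each of these genes, below both days. SP5, a zinc finger factor switched on by WNT signalling, was first in rank among all higher genes with 1.2, 85.1 and 236.7, log2 ratios of 5.29 and 6.76. Among the other list members, LHX1 was past the fold on day 12 only (0.51, 8.27 and 3.42), CDX1 on day 16 only (0.52, 2.42 and 10.9), and TBX6 and MESP2 on neither.

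**Figure D3:**
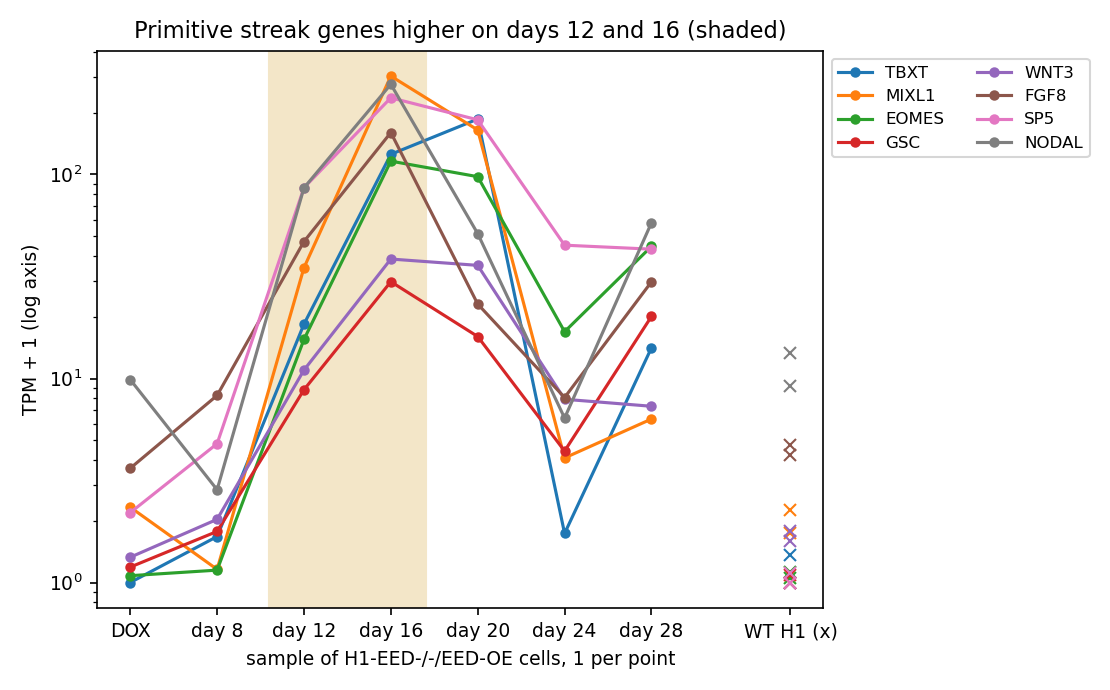
TPM + 1 on a log axis of the 8 primitive streak genes that were higher on both days, along the time course of H1-EED-/-/EED-OE cells (1 sample per point) and in 2 WT H1 samples (crosses). Day 8 lies near or below DOX for MIXL1, EOMES and NODAL, days 12 and 16 (shaded) climb in every gene, and day 24 falls below day 16 in all 8.

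The promoters of SP5 and MIXL1, the pair of primitive streak members in which a WNT-type motif was found, are shown from RefSeq on GRCh38.p14. Each is the run of 250 bases that ends just before the annotated start, SP5 at chr2:170715087-170715336 and MIXL1 at chr1:226223414-226223663, both on the plus strand. Capitals mark CTTTGAT, the core bound by TCF and LEF factors, searched on both strands.
SP5: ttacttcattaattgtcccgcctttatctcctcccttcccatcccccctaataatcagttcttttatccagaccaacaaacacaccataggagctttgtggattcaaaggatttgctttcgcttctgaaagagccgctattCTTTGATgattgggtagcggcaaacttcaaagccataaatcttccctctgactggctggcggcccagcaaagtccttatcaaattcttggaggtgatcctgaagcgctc
MIXL1: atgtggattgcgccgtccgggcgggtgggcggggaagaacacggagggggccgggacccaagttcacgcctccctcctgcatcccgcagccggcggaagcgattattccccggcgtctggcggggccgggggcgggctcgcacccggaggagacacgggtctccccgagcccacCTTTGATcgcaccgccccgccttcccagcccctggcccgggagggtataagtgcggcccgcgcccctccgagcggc
The match begins 109 bases before the start of SP5 and 76 bases before that of MIXL1. Promoters were found for 7 of the 8 streak genes and 2 held the motif (28.6%), as did 5 of the 234 matched higher genes (2.14%), 1.25% of 12192 matched genes among those tested and 2.28% of the 27305 genes in the table. CpG dinucleotides, at which PRC2 gathers in islands, numbered 6 in the SP5 window and 30 in that of MIXL1. Their median was 18 in the higher genes, 15 in the lower genes and 21 over all matched genes tested, so the higher genes were not richer in CpG. The motif and CpG counts were made after the values of these genes were known, and a match is a description and not a bound site.

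Ligands and inhibitors of the NODAL pathway were higher too. NODAL, the TGF-beta family ligand that induces mesendoderm, had 8.88 with DOX, 85.0 on day 12 and 275.8 on day 16, against 12.3 and 8.16 in WT H1. CER1, a secreted inhibitor of NODAL, BMP and WNT, had 2.12, 28.6 and 441.6, which gave a log2 ratio of 7.15 on day 16. FST, which binds activin, had 4.03, 38.7 and 119.4. LEFTY1, another NODAL inhibitor, was past the fold on day 16 alone with 28.5, 72.03 and 99.03, and WT H1 at 35.7 and 9.15 shows how far replicates of this gene lie apart. INHBE, an activin subunit, went the other way, from 12.3 to 1.69 and 0.65. In the NODAL, activin and TGF-beta list, 2 of 11 tested genes were higher (18.2%) and 1 lower, and of the BMP and activin antagonists 2 of 13 were higher (15.4%). Over all genes tested these shares were 2.04% higher and 0.254% lower.

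Some WNT and FGF genes followed. WNT3, the ligand required for streak formation, had 0.33, 10 and 37.5, and WNT5B had 0.62, 10.3 and 12.7. AXIN2, a feedback target of WNT signalling, had 6.29, 21.5 and 34.8, but WT H1 stood at 8.94 and 12.7. LEF1, a WNT effector, had 0.60, 7.31 and 13.5 and was below 0.5 in WT H1. In the WNT list, 4 of 19 tested genes were higher on both days (21.1%, beside 2.04% of all genes), and 3 with TPM scaled by median ratios, without AXIN2. Of the 19, 11 were under a TPM of 1 with DOX and entered the test only through the days. In the same list 4 genes lay below DOX on both days, and 1 was lower by the fold on day 16. The summed TPM of the list fell from 915.1 with DOX to 719.1 on day 12 and 525.0 on day 16, with 880.8 and 810.0 in WT H1. FGF8, a streak ligand, had 2.63, 45.9 and 159.6. FGF4 was above WT H1 on day 12 but short of the fold from its mean (2.72 against 0.71 and 1.09), and reached 51.9 on day 16. It was 0.21 with DOX, and its smaller log2 ratio of 1.49 after scaling was short of the fold. In the FGF list 2 of 18 tested genes were higher on both days (11.1%), and 1 after scaling. On day 16, 1 gene of that list was lower by the fold, beside 1.03% of all genes tested.

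BMP ligands and targets were higher on both days at a share near that of the NODAL, activin and TGF-beta list (18.2%), from few genes each. BMP7 was the only BMP ligand of 6 tested that was higher on both days, with 11.1, 46.7 and 37.6, and after scaling by median ratios (1.49) none was. BMP4 had 3.77, 10.5 and 24.7, past the fold on day 16 only, and BMP2 had 1.18, 1.67 and 3.30. The BMP ligands and the 12 tested BMP targets each had 16.7% of genes higher on both days, from 1 and 2 genes, beside 2.04% over all genes. Of the targets, ID2 (44.4, 202.8 and 275.9) and MSX2 (1.52, 8.57 and 15.6) were higher, whereas ID1 (170.9, 145.5 and 227.9) and ID3 (232.2, 190.7 and 172.3) were not past the fold on either day. Of the receptors and SMADs, BMPR1A alone was higher, at 9.50, 32.2 and 35.0, and WT H1 was at 26.5 and 24.3. It lost the fold after scaling (1.38).

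Some regulators of later mesoderm and endoderm were higher as well. TBX5, a heart and forelimb factor, went from 0 with DOX to 36.1 on day 12 and 11.8 on day 16, and the higher day was day 12. GATA4 had 0.52, 17.7 and 51.3 and FOXA2, a pioneer factor of endoderm, 0.09, 5.20 and 17.0. KDR, a VEGF receptor, had 38.5, 154.1 and 191.5, beside 50.9 and 66.1 in WT H1. Of 13 tested endoderm genes 3 were higher on both days (23.1%), and the list summed to a TPM of 32.0, 100.5 and 568.5. Of 12 tested trophoblast and amnion genes 4 were past the fold upwards on day 12 and 2 on day 16, and GABRP alone on both, at 102.9, 329.2 and 324.8. WT H1 had 245.6 and 288.5, so GABRP was not past the fold from WT H1, nor from DOX after scaling (1.36). GATA3 was past the fold from DOX on day 16 only (0.22, 1.47 and 2.72), GATA2 on day 12 only (0.13, 2.98 and 1.17), and HAND1 on neither day. CDX2 stayed under a TPM of 1 in all 3 samples (0.06, 0.90 and 0.76) and was not tested. The smooth muscle and fibroblast list summed to 1922.4 with DOX, 1389.1 on day 12 and 831.8 on day 16 with 2 of 17 genes higher, ACTA2 and TWIST1. After scaling, ACTA2 was no longer past the fold and TAGLN was lower. None of 10 neural crest and placode genes was higher on both days, and 2 of 16 neural genes were, ZIC1 (1.32, 50.1 and 34.0) and LHX2 (0.27, 5.80 and 3.89). PAX6 was at 0.48, 1.72 and 1.45. ZIC1 is a regulator of dorsal neural and somitic cells. Beside all these lists, 2.04% of all genes tested were higher on both days, 3.26% on day 12 and 4.38% on day 16. Of the 13 endoderm genes, 8 were under a TPM of 1 with DOX and entered the test only through the days. Their share is thus not like for like with 2.04%.

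HOX genes, the classical PRC2 targets that set position along the body axis, were low but on. All 20 tested HOX genes were under a TPM of 1 with DOX, and since they entered the test only through the days, their direction is not a result. HOXA7 reached 4.80 on day 12 and 7.30 on day 16, HOXB2 6.55 and 6.65, and HOXD13 2.93 and 4.92. HOXB1, HOXB7, HOXC4 and HOXD11 also passed the fold, which makes 7 of the 20 tested (35%) and 7 of 39 in all. Over all genes tested the share was 2.04%. Only 2087 of those 16558 genes were under a TPM of 1 with DOX, so the 2 shares are not like for like. Of the 39, 5 were at 0 in all 3 samples. The whole list summed to 1.2 with DOX, 48.1 on day 12 and 59.7 on day 16, and to 0.1 and 0.4 in WT H1.

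Of 17 PRC1 genes 2 were higher on both days (11.8%), and of 12 CDK inhibitors and G1 cyclins also 2 (16.7%), beside 2.04% of all genes. With TPM scaled by median ratios each count was 1, since CBX8 (1.47) and CCND1 (1.32) were short of the fold. BMI1, a PRC1 subunit, had 3.14, 43.1 and 40.6, and 2.12 and 2.99 in WT H1. The overlapping genes COMMD3 (3.88, 16.6 and 15.4) and COMMD3-BMI1 share its locus on chromosome 10, so reads of the 3 genes cannot be fully separated. CBX8, a PRC1 chromobox subunit, had 0.96, 7.01 and 4.89, and 15 other PRC1 genes did not pass the fold on both days. CDKN2A, which encodes the inhibitors p16 and ARF, had 1.10, 31.1 and 19.2, whereas its neighbour CDKN2B was at 0, 0.35 and 1.28. CCND1, the cyclin D1 gene, had 30.0, 94.2 and 111.1. In the collagen and matrix list 4 of 24 tested genes were higher (16.7%) and 0 lower, and 2 after scaling, without FN1 and COL6A2. FN1 had 58.9, 191.5 and 221.6 and LAMB1 24.8, 96.9 and 95.3. The hyaluronan synthase gene HAS2, which is not in that list, had 1.01, 30.9 and 96.8. Other leading genes were GAD1, which makes GABA (0.82, 32.0 and 82.2), the peptide receptor gene GRPR (0.95, 34.2 and 39.9, with WT H1 at 12.0 and 7.73), GPR50 (0.74, 39.4 and 49.0), BARX1 (3.17, 73.5 and 52.1) and CNTFR (2.61, 41.7 and 42.9).

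The mitochondrial and metabolic genes BNIP3 and PDK1 were the 2 of 18 hypoxia and glycolysis genes that were higher on both days (11.1%). Over all genes tested the share was 2.04%. BNIP3, a mitophagy receptor, had 32.9, 233.0 and 219.8, and WT H1 had 36.0 and 26.3. PDK1, which holds back pyruvate oxidation, had 10.7, 63.8 and 112.7.

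**Figure D4:**
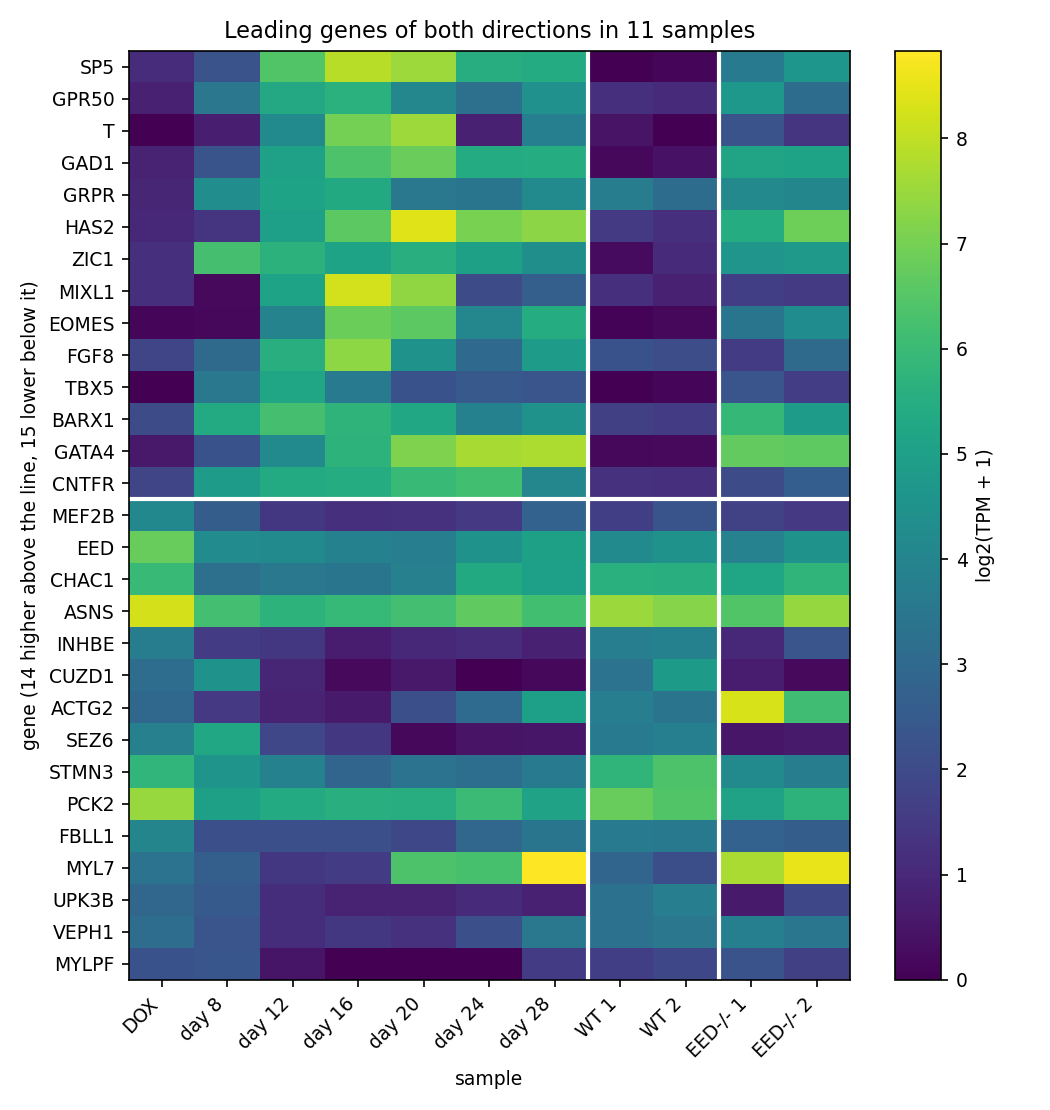
Log2(TPM + 1) as colour for 14 leading higher and 15 leading lower protein-coding genes (rows, ranked by the smaller log2 ratio of the 2 days), in the DOX sample, 6 days after withdrawal, 2 WT H1 and 2 EED-/- H1 samples (columns). SP5 to CNTFR are darker in DOX and WT H1 than on days 12 and 16, GRPR the least so in WT H1 (12.0 and 7.73 TPM); MEF2B to MYLPF are darker on days 12 and 16 than with DOX.

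The 42 lower genes hold 24 protein-coding genes and 17 of other annotated types. In the stress list 2 of 18 tested genes were lower on both days, ASNS and CHAC1, beside 0.254% of all genes tested, and 0 were higher. Both are known targets of ATF4, the factor of the amino acid response. ASNS, asparagine synthetase, had 306.0 with DOX, 52.0 on day 12 and 59.6 on day 16, and 180.1 and 147.7 in WT H1. CHAC1, which degrades glutathione, had 61.4, 10.5 and 9.80, and 48.2 and 46.4 in WT H1. Outside that list, PCK2, the mitochondrial PEP carboxykinase, had 175.5, 41.4 and 46.9, and the stress factor ATF5 had 26.2, 7.72 and 7.22. Days 12 and 16 thus lay below DOX and below both WT H1 samples for all 4 genes. Against the mean of WT H1, the smaller log2 ratios of ASNS (-1.44) and PCK2 (-1.05) were short of the fold, and that of CHAC1 (-2.07) was past it. PCK2 had 109.5 and 86.5 in WT H1, so the DOX sample stood above both WT H1 samples for ASNS, CHAC1 and PCK2. TRIB3 and DDIT3, also targets of ATF4, were not past the fold (19.2, 8.92 and 7.21, and 4.68, 3.42 and 3.06).

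The promoters of ASNS and CHAC1 are shown because they hold the core TGATGNAA of the C/EBP-ATF response element, searched on both strands and marked by capitals. They are runs of 250 bases from RefSeq on GRCh38.p14 that end before the first listed start, ASNS at chr7:97872409-97872658 on the minus strand and CHAC1 at chr15:40953221-40953470 on the plus strand, each written 5′ to 3′ in the direction of the gene.
ASNS: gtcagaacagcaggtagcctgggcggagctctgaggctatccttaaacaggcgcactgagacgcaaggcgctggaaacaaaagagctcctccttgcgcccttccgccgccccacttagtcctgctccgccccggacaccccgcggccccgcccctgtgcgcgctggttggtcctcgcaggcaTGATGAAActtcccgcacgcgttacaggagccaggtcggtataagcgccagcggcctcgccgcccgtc
CHAC1: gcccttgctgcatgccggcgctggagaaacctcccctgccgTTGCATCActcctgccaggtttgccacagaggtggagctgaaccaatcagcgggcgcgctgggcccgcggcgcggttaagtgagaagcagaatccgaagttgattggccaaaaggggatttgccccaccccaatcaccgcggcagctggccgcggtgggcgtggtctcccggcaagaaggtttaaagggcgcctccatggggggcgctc
The match begins 68 bases before the start of ASNS, and 209 bases before that of CHAC1 on its other strand. Among the lower genes, promoters were found for 23 of 42 and 4 held the core (17.4%), ASNS and CHAC1 as well as CUZD1 and FBLL1. The core was in 1.35% of the matched genes among those tested and in 3.19% of all 27305 genes of the table. The search was made after the values of these genes were known, and ASNS and CHAC1 themselves count among the 4. The share is thus a description, and a match is not a bound site. PCK2 and ATF5 have no match in this window.

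The remaining lower genes were of other kinds. The transcription factor gene MEF2B went from 16.3 to 1.71 and 1.27, but WT H1 was at 2.12 and 3.91, so here the DOX sample stood apart. Lower genes also were STMN3 (55.3, 13.6 and 6.39), SEZ6 (13.3, 2.69 and 1.68), the synaptic vesicle gene SYN1 (20.3, 5.61 and 4.98) and the granin gene CHGA (61.9, 18.8 and 7.78), while the neurofilament gene NEFL (11.1, 73.2 and 78.0) was higher. The muscle genes ACTG2 (6.98, 0.78 and 0.57), MYL7 (9.19, 1.70 and 1.88) and TNNT2 (24.4, 7.21 and 1.74) were lower, and ACTA2 (6.03, 20.4 and 21.4), another smooth muscle gene, was higher. Since MYL7 in WT H1 was 6.30 and 3.32, and SYN1 8.86 and 9.71, not all of them were past the fold from WT H1. Of the 42, 29 lay below both WT H1 samples on both days, a count that is not independent of their choice as low on these days.

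The other days, 1 sample each, were set against the same DOX library in which the 337 genes were chosen to be low, so the counts that follow describe these genes and are not independent of the rule. On day 8, 128 of the 337 higher genes were past the fold in the same direction (2.94% of all 16558 genes were). BMI1 (36.9), CDKN2A (22.3) and ZIC1 (74.1) were among them, and TBXT (0.68), EOMES (0.15) and MIXL1 (0.16) were not. On day 20, 261 of the 337 were past the fold from DOX, on day 24 211 and on day 28 229 (8.85%, 11.8% and 16.5% of all), and 124 stayed at or beyond the nearer of their values on days 12 and 16 on all 3 later days. GATA4 and HAS2 did so, GATA4 with 137.4, 202.6 and 213.0. MIXL1 did not, with 164.2 on day 20, 3.08 on day 24 and 5.33 on day 28, nor did TBXT with 186.0, 0.74 and 13.1. NANOG was at 1.71 and POU5F1 at 33.6 on day 28. Among the lower genes 19 were past the fold on day 8, 32 on day 20, 29 on day 24 and 25 on day 28 (0.676%, 3.09%, 5.36% and 6.44% of all). MYL7 and ACTG2 were above DOX by then, with 455.1 and 30.4 on day 28.

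Constitutive EED-/- H1 cells gave a comparison that shares no sample with the days. They have lost pluripotency (POU5F1 at 5.27 and 3.62), and the comparison with WT H1 was tested with limma on log2(TPM + 1) over 19100 genes at an FDR of 1% and a fold of 3. Over all genes tested, 16.2% were called up and 6.09% down, with a median log2 fold change of 0.36. Of the 337 higher genes, 336 were tested and 146 were called up (43.3% of the 337) and 23 down (6.82%), with a median of 1.40. Of the 42 lower genes, 37 were tested and 12 were called down (28.6%) and 2 up, with a median of -0.54. Without either WT H1 replicate, 7 of the 42 lower genes were called down.

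By gene, EED-/- H1 cells divided the streak list. SP5 was called up (log2 fold change 4.03 ± 0.34, SE, limma adjusted p = 5.61e-06), as were EOMES (3.73), NODAL (1.75), GSC (2.95) and WNT3 (2.72). MIXL1 was not (0.59, adjusted p = 0.127 in limma), nor were FGF8 (0.15) and TBXT (1.57), which was at the edge of the fold at 3.74 and 1.56 TPM. CDKN2A (8.30), CER1 (6.48), GATA4 (6.47) and BMI1 (4.15) were called up. In the endoderm list, which holds CER1 and GATA4, 14 of 15 tested genes were called up there. Of the 7 HOX genes, 6 were called up and HOXB1 was not tested. Since 35 of the 36 HOX genes tested in this fit were called up, these calls do not set the 7 apart. NANOG was higher on the days and called down in EED-/- H1 cells (-6.32, limma adjusted p = 2.47e-07), and GABRP was as well (-4.48). Among the lower genes SEZ6 (-3.15), STMN3 (-2.09) and INHBE (-2.15) were called down, whereas ASNS (-0.44, limma adjusted p = 0.243) and CHAC1 (-0.10, adjusted p = 0.822) were not. MYL7 (5.65) and ACTG2 (3.63) were called up there, against their direction on the days.

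**Figure D5:**
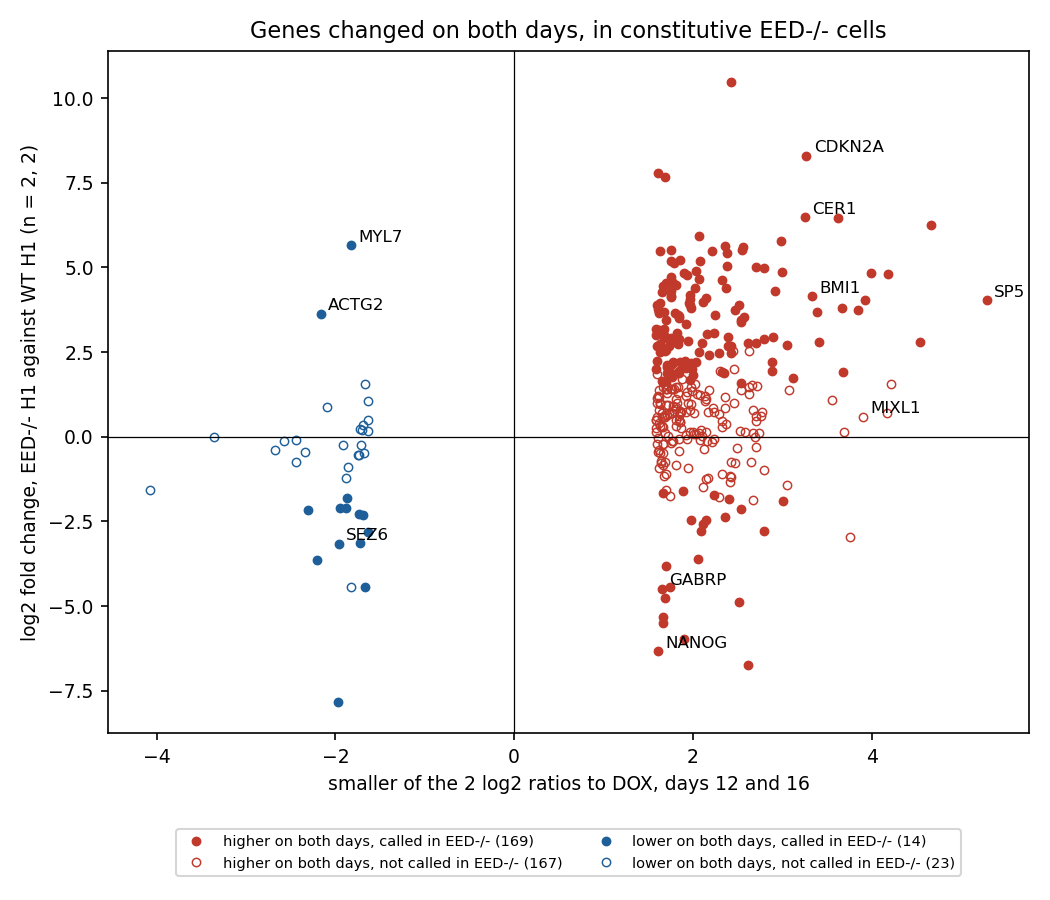
Log2 fold change of EED-/- H1 against WT H1 (vertical, 2 samples each, limma) against the smaller of the 2 log2 ratios to DOX (horizontal), for the 336 higher (red) and 37 lower (blue) genes that were tested. Filled points were called at an FDR of 1% and a fold of 3 in either direction; of the higher genes 146 were called up and 23 down, NANOG among the latter.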

How the data were processed

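TruSeq RNA libraries were sequenced by the authors, who aligned reads to the human mRNA reference of GRCh38 with Bowtie2 and RSEM and deposited TPM for 33382 genes in each of 19 samples. The submitters' processing notes also list hg19. Columns sum to the same total in every sample, so counts and depth cannot be recovered and no interval or floor that needs depth is given. Genes were joined by Ensembl identifier, since some names had become dates. Samples were grouped by their labels.

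Ratios used log2(TPM + 1), which understates changes of low genes, and a fold of 3, the cutoff in the authors' methods. Genes that reached a TPM of 1 in any of the 3 samples were tested. With 1 library per day there is no p-value. EED-/- H1 was compared with WT H1 by limma 3.58.1 in R 4.3.3 (12 samples, 6 line means, trend and robust options, genes that reached a TPM of 1 in 2 or more samples, Benjamini-Hochberg), since the authors' edgeR test needs counts. The script was tested on simulated data. Labels do not say that the 2 samples of a line came from separate cultures, so p-values may measure technical spread. Replicate numbers were given in accession order and do not pair samples. No sequencing batch is labelled.

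The genes compared and the 31 gene lists were chosen with earlier results of these data known. Named genes are the 15 leading protein-coding genes of each direction by the smaller ratio, list members past the fold on both days, and a panel of 41 genes, less 1 gene that is not reported here; others, such as QKI, NANOGP8, COMMD3, ATF5, SYN1, CHGA and NEFL, were chosen after their values were seen. The list of 13 mitochondrially encoded genes had 0 matches and was not analysed. Annotation was GENCODE release 44 (32481 genes matched, 97.3%). Alternatives were other folds, pseudocounts, filters, scaling, WT H1 as reference, and other limma fits. Python 3.11.15, numpy 2.4.6, pandas 2.3.3 and matplotlib 3.10.9 were used.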

Additional observations from a re-analysis of the deposited data

Results flagged for a closer look

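NODAL was flagged because day 8 and the days that follow moved in opposite directions from DOX. Its TPM was 8.88 with DOX, 1.85 on day 8, 85.0 on day 12 and 275.8 on day 16, and its log2 ratio to DOX was -1.79 on day 8 against 3.12 and 4.81. Each day is 1 sample, so the difference was not tested.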

How the results depend on the processing

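With a fold of 2, 1306 genes were higher and 190 lower on both days, with a fold of 4, 149 and 13, and with a pseudocount of 0.1, 1028 and 150. Scaling by median ratios gave 219 higher genes. Against the mean of WT H1, 113 genes were lower, and the medians of the pluripotency list were -0.137 on day 12 and -0.728 on day 16. Requiring the fold against DOX and both WT H1 samples left 129 and 14. Of the genes found against WT H1, 147 of 251 higher and 16 of 113 lower were among the 337 and 42. In EED-/- H1, leaving out 1 sample of EED-/- H1 or WT H1 gave 122 to 131 higher genes called up and 7 to 11 lower genes called down; the lone sample left is then assumed to vary like the other lines. With a replicate block the counts were 150 and 12 (146 and 12 without it); samples share only a number, since deviations from line means correlated by -0.121 to 0.218 over 15 pairs of lines and by 0.041 between EED-/- H1 and WT H1. Every alternative in the EED-/- fit kept the count of higher genes within 1.5 times. Of 222 alternative values for 74 named genes, 143 stayed within 1 replicate SD, 79 moved in the same direction and 0 reversed. Scaling by median ratios took 12 of the 74 genes below the fold, all of them higher genes: NANOG, BMP7, CBX8, CCND1, FN1, COL6A2, ACTA2, GABRP, BMPR1A, AXIN2, FGF4 and MT1F. Against the mean of WT H1, 10 of the higher and 7 of the lower genes were short of it, and with a pseudocount of 0.1 none was. Depth is unknown, so low TPM cannot be given a floor.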

Other observations

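Other genes differed on 1 day alone. SOX17, an endoderm factor, had a TPM of 0.10 with DOX, 1.10 on day 12 and 11.6 on day 16, and GATA6 had 0.22, 0.64 and 4.78. TGFB1 had 6.44, 18.1 and 37.5, past the fold on day 16 only. SFRP1, a secreted WNT antagonist, had 180.3, 103.4 and 21.0, and the WNT inhibitor gene DKK1 had 0.48, 0.66 and 5.77. On day 12 only, LDHA, lactate dehydrogenase A, was past it, with 1169 against 296.1 with DOX and 659.4 on day 16. On day 12, 4 of 18 hypoxia and glycolysis genes were past the fold upwards, beside 3.26% of all genes tested. FOS, an immediate early gene, had 113.1 with DOX, 27.3 on day 12 and 264.9 on day 16, and 14.3 and 11.9 in WT H1. These genes were chosen after their values were seen, as was TXNIP, which restrains glucose uptake and was higher on both days, with 4.59, 98.4 and 37.5, and 118.9 on day 8.

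Of 30 cytosolic ribosomal protein genes, 25 lay below DOX on both days, beside 4139 of all 16558 genes tested. Their median log2 ratios were -0.21 and -0.18, beside 0.27 and 0.16 over all genes tested. None was past the fold. Their summed TPM was 112518 with DOX, 98999 on day 12 and 99893 on day 16, and 99393 and 95044 in WT H1.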
